A study of Ovis aries with 8 samples.

Results

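The 10 genes described here encode enzymes that make, interconvert and break down serine and glycine: PHGDH, PSAT1, PSPH, SHMT1, SHMT2, GLDC, AMT, SDS, SDSL and AGXT2. They were chosen by symbol, with their differences between the groups already known, and each matched 1 of the 27729 genes in the table. Liver RNA had been sequenced from 8 preweaning Assaf lambs to ask what restricting the milk replacer does to liver expression. The 4 ADL lambs drank milk replacer (200 g dry matter per L) ad libitum, with an intake given as 192 mL per kg of live body weight, and the 4 RES lambs were restricted to 120 mL per kg. ADL 1 to ADL 4 were slaughtered at 33 to 36 days and 10.4 to 12.45 kg, and RES 1 to RES 4 at 33 to 36 days and 7.5 to 8.7 kg. Each library came from 1 lamb. Levels are TPM, a measure scaled to gene length and library total, values after ± are SDs, and n = 4 in each group unless stated.

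Serine is built from a glycolytic intermediate in 3 steps. PHGDH oxidises phosphoglycerate, PSAT1 transfers an amino group from glutamate, and PSPH removes the phosphate. SHMT1 in the cytosol and SHMT2 in mitochondria exchange serine for glycine and pass the released carbon to folate. Glycine is broken down in mitochondria by the glycine cleavage system, in which GLDC removes the carboxyl group and AMT moves the remaining carbon to folate. SDS deaminates serine directly to pyruvate, which the liver can turn into glucose, and in rats it is known to be induced by glucagon and dietary protein. SDSL is a related protein. AGXT2 is a mitochondrial aminotransferase that makes glycine from glyoxylate with alanine as the donor.

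ADL 3 and RES 4 stood apart from their groups. Along the main axis of variation in the 13812 genes with a mean of at least 1 TPM (38.1% of the variance), ADL 3 fell beyond the RES lambs at 46.3, whereas its group mates scored -34.3 or lower. The next axis (22.2%) set RES 4, at -22.8, against the remaining RES lambs at 24.1 or higher. On this axis RES 4 lay among the ADL lambs, and ADL 3 lay farthest from the remaining RES lambs. ADL 1 to ADL 4 scored 10.3, -12.62, -36.45 and -19.21. ADL 3 weighed 12.05 kg and was 36 days old, within its group on both measures. The labelled tissue showed its defining genes. The summed hepatocyte markers (7 of 8 in the table, none at 0) were lowest in RES 4 (55321 TPM) and ADL 3 (60586 TPM), against 68032 to 115455 TPM in the other ADL lambs and 133302 to 160896 TPM in the other RES lambs, and all 7 markers had a log2 fold change above 0, with 0 called. The summed cholangiocyte markers (5 of 6 in the table, none at 0) were highest in these same lambs, at 111 TPM in ADL 3 and 88.6 TPM in RES 4, against 27.0 to 53.3 TPM in the other ADL lambs and 10.1 to 21.4 TPM in the other RES lambs. The highest single value was 111613 TPM in the hepatocyte list and 81.9 TPM in the cholangiocyte list, so 1 gene can make up most of a sum. The part of both lists in the results was not tested. Whether the label or the animal of ADL 3 is unusual cannot be told apart from these data, and each value without ADL 3 carries that doubt. Group values are given with and without it. ADL 3 was set apart by its expression in these same data. The p-values without it are therefore too small for genes in which it lay with the RES lambs, and they describe only. In whole liver, fewer cells of a type and less RNA per cell cannot be told apart.

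In outline, the serine-consuming SDS and SDSL were high in ADL 1, ADL 2 and ADL 4 and low in nearly all other lambs, the synthesis genes PHGDH and PSAT1 were highest in RES 1 to RES 3, and AGXT2 was higher in every RES lamb than in every ADL lamb. SHMT1 and SHMT2 stayed within a narrow range. With limma on log2(TPM + 0.5), adjusted over all 13812 genes by the Benjamini-Hochberg method, 0 of the 10 members passed 0.05 (adjusted p = 0.182 to 0.913), against a background of 0.00724% of all genes, while 6 members had an unadjusted p under 0.05 (background 9.70%). Voom on whole reads also called 0. Without ADL 3, 4 members passed, PSAT1 and AGXT2 higher and SDS and SDSL lower in RES, against 10% of all genes (2.42% higher, 7.59% lower). After median-of-ratios rescaling, also without ADL 3, 7 passed (PHGDH, SHMT1 and AMT were added, all higher), against 8.48% of all genes (619 higher, 552 lower). In the authors' deposited table, AGXT2 (adjusted p = 1.77e-06), SDSL (8.26e-05), AMT (0.0343) and PSAT1 (0.0447) were below 0.05, against 2.30% of all genes. Since the members were chosen with this contrast known, these counts describe them and support nothing.

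**Figure D1:**
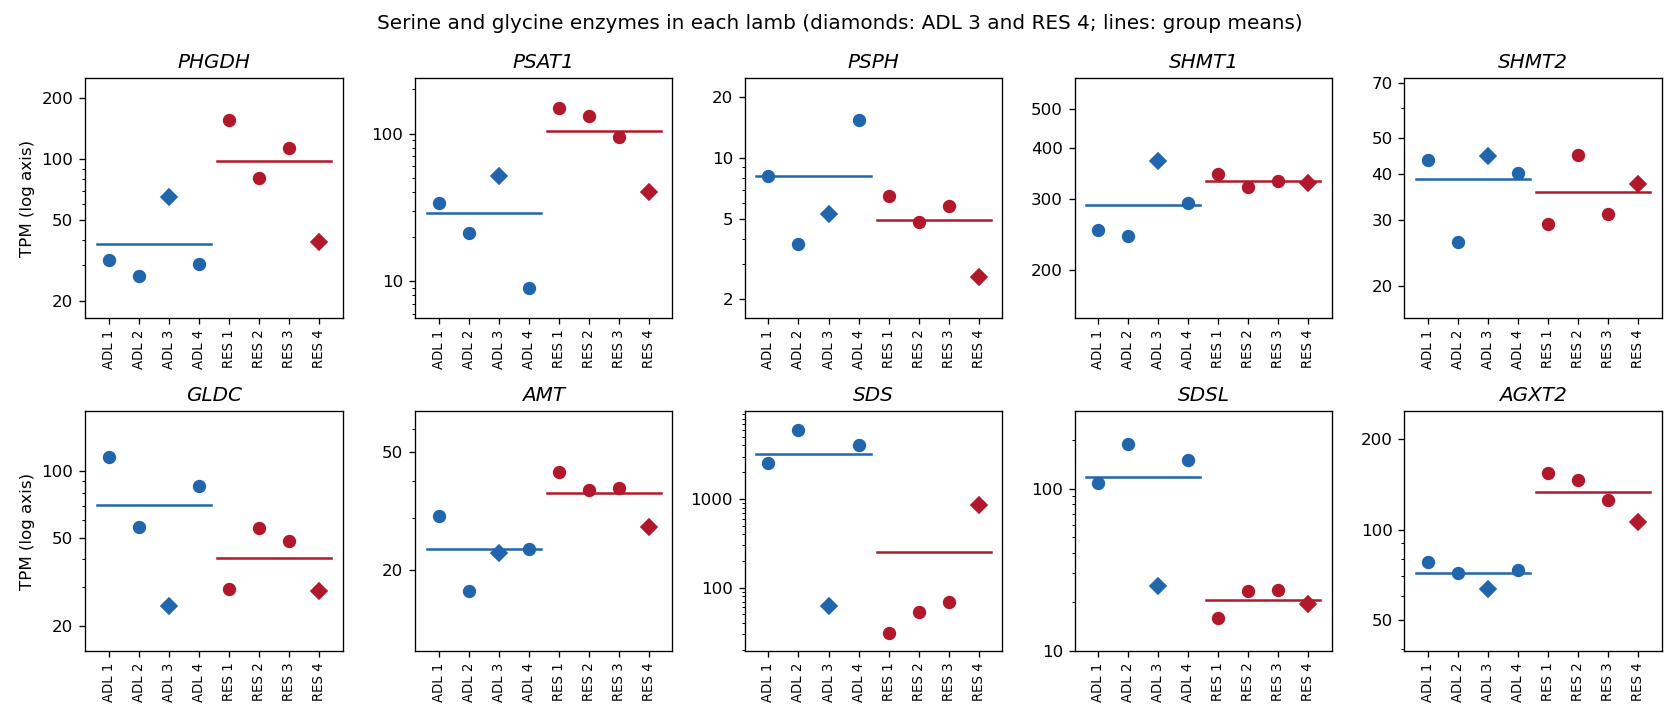
TPM of the 10 serine and glycine genes in each lamb on log axes that differ between panels, with ADL in blue, RES in red, group means as lines and ADL 3 and RES 4 as diamonds. In AGXT2 and SDSL the 4 RES lambs lay on one side of the 4 ADL lambs, and in SDS the levels ran from 31.1 to 6042 TPM.

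Serine synthesis opened with PHGDH (chromosome 1, 96061436 to 96099638, plus strand, 15 exons; coordinates here and below are those of the deposited table, whose genome build no source used here states). PHGDH was at 31.9, 26.5, 65.0 and 30.4 TPM in ADL 1 to ADL 4 and at 156, 81.3, 114 and 39.2 TPM in RES 1 to RES 4. RES 1 to RES 3 were above every ADL lamb, and the groups overlapped because ADL 3 lay above RES 4. The means were 38.4 ± 17.9 TPM in ADL and 97.8 ± 49.7 TPM in RES, a log2 fold change of 1.26 (SE 0.42). Without ADL 3 the ADL mean was 29.6 ± 2.78 TPM (SD, n = 3), and the log2 fold change was 1.54 (SE 0.41).

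PSAT1 (chromosome 2, 58139556 to 58167245, minus strand, 9 exons) was at 34.0, 21.2, 51.3 and 8.97 TPM in ADL 1 to ADL 4 and at 148, 131, 94.1 and 40.1 TPM in RES 1 to RES 4. As in PHGDH, RES 4 was the lowest RES lamb and ADL 3 the highest ADL lamb, and these were the lambs through which the groups overlapped. The group means were 28.9 ± 18.1 and 103 ± 47.8 TPM, with a log2 fold change of 1.92 (SE 0.54), or 2.28 (SE 0.54) without ADL 3. The ratio of PSAT1 to PHGDH within a lamb ran from 0.295 in ADL 4 to 1.61 in RES 2.

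PSPH, the last step, was not higher in RES. It had the lowest mean of the 10 genes in each group, though in ADL 4 it was above PSAT1. PSPH was at 3.75 to 15.5 TPM in ADL and 2.59 to 6.53 TPM in RES (64 to 337 reads per lamb), with means of 8.18 ± 5.23 and 4.94 ± 1.71 TPM. The log2 fold change was -0.56 (SE 0.41), and the ranges overlapped. Within each lamb, PHGDH was 1.96 to 12.3 times PSPH in ADL and 15.1 to 24.0 times in RES. PSAT1 was 0.578 to 9.74 times PSPH in ADL and 15.5 to 27.3 times in RES. In both ratios every RES lamb was above every ADL lamb, ADL 3 and RES 4 included. These ratios were computed after the single values had been seen and were not tested.

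The genes of serine and glycine exchange had the smallest log2 fold changes of the members in the 8 lambs. SHMT1 (chromosome 11, 33837370 to 33852502) was at 250, 243, 373 and 293 TPM in ADL 1 to ADL 4 and at 345, 320, 332 and 327 TPM in RES 1 to RES 4. The RES lambs were close to each other, with an SD of 0.05 on the log2 scale against 0.28 in ADL, and they lay between ADL 3 and the other ADL lambs. The log2 fold change was 0.21 (SE 0.17), or 0.34 (SE 0.12) without ADL 3. SHMT2 (chromosome 3, 161908602 to 161913884) had 38.6 ± 8.44 TPM in ADL and 35.8 ± 7.09 TPM in RES, with a log2 fold change of -0.10 (SE 0.21) that was -0.02 without ADL 3 and 0.12 there after rescaling. The cytosolic gene was thus 5.75 to 9.23 times the mitochondrial one in ADL and 7.12 to 11.8 times in RES, ranges that overlapped.

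The glycine cleavage members had log2 fold changes of opposite sign, and neither passed in the 8 lambs or, before rescaling, without ADL 3. GLDC (chromosome 2, 74007695 to 74096579, 25 exons) was at 117, 55.9, 24.7 and 85.8 TPM in ADL 1 to ADL 4 and at 29.4, 55.6, 48.6 and 28.9 TPM in RES 1 to RES 4. ADL 3 was the lowest of all 8 lambs, and ADL 2 was level with RES 2. The log2 fold change was -0.64 (SE 0.44), or -1.07 (SE 0.31) without ADL 3. AMT (chromosome 19, 50650777 to 50655807, 8 exons) was at 30.5, 17.1, 22.9 and 23.5 TPM in ADL 1 to ADL 4 and at 43.0, 37.5, 37.9 and 27.9 TPM in RES 1 to RES 4. In AMT, ADL 3 lay among its own group, and the overlap came from ADL 1 and RES 4. Its log2 fold change was 0.64 with or without ADL 3 (SE 0.21 and 0.22). GLDC was 3.28 to 3.83 times AMT in ADL 1, ADL 2 and ADL 4, 1.08 times in ADL 3 and 0.684 to 1.48 times in RES.

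SDS (chromosome 17, 60681920 to 60689944, plus strand, 8 exons) had the widest range of the members. It was at 2548, 6042, 63.0 and 4007 TPM in ADL 1 to ADL 4 and at 31.1, 53.9, 68.9 and 862 TPM in RES 1 to RES 4, from 424 to 82445 reads per lamb. The highest lamb was 194 times the lowest, and the SD over the 8 lambs on the log2 scale (3.16) was the 2nd largest of 13812 genes. ADL 1, ADL 2 and ADL 4 were above every RES lamb, ADL 3 lay with RES 1 to RES 3, and RES 4 lay between the clusters. By level, SDS was the 20th most abundant gene of the liver in ADL 2, the 145th in RES 4 and the 3145th in RES 1. The group means, 3165 ± 2516 and 254 ± 405 TPM, had SDs of similar or larger size. The log2 fold change was -3.80 (SE 1.45), and -5.29 (SE 1.01) without ADL 3, when the ADL mean was 4199 ± 1755 TPM (SD, n = 3).

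The authors' deposited table gives SDS a log2 fold change of -0.61 after shrinkage and -3.47 by maximum likelihood (adjusted p = 0.323). For AGXT2 the authors' deposited table gives 0.90 and 0.94.

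SDSL (chromosome 17, 60655104 to 60667362, minus strand, 9 exons) lies beside SDS, 14557 bases away with 0 other genes between them in the deposited table, and the pair point away from each other. SDSL was at 108, 187, 25.04 and 150 TPM in ADL 1 to ADL 4 and at 16.0, 23.3, 23.7 and 19.3 TPM in RES 1 to RES 4. All RES lambs were below all ADL lambs, though ADL 3 cleared the highest RES lamb by little. The log2 fold change was -2.17 (SE 0.53), and -2.80 (SE 0.22) without ADL 3. SDS was 23.7 to 32.3 times SDSL in ADL 1, ADL 2 and ADL 4 and 1.95 to 2.90 times in ADL 3 and RES 1 to RES 3. In RES 4 it was 44.6 times, the highest of all, because SDSL was as low there as in the other RES lambs while SDS was not. PLBD2, the gene on the other side of SDS, had 37.6 to 58.6 TPM in the 8 lambs and a log2 fold change of -0.05 (limma adjusted p = 0.946), or -0.19 (adjusted p = 0.262) without ADL 3.

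AGXT2 (chromosome 16, 39055568 to 39098945, plus strand, 14 exons) was at 77.9, 71.9, 63.2 and 73.6 TPM in ADL 1 to ADL 4 and at 154, 146, 125 and 106 TPM in RES 1 to RES 4. The groups did not overlap, and ADL 3 was the lamb farthest from RES. The means were 71.6 ± 6.14 and 133 ± 21.9 TPM, a log2 fold change of 0.87 (SE 0.17), or 0.82 (SE 0.15) without ADL 3. AGXT2 and SDSL were the 2 of 10 members whose groups did not overlap (1 higher and 1 lower in RES), against 4.48% of all tested genes (2.80% higher, 1.68% lower). Without ADL 3 the groups did not overlap in 7 members, against 27.8% of all genes.

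**Figure D2:**
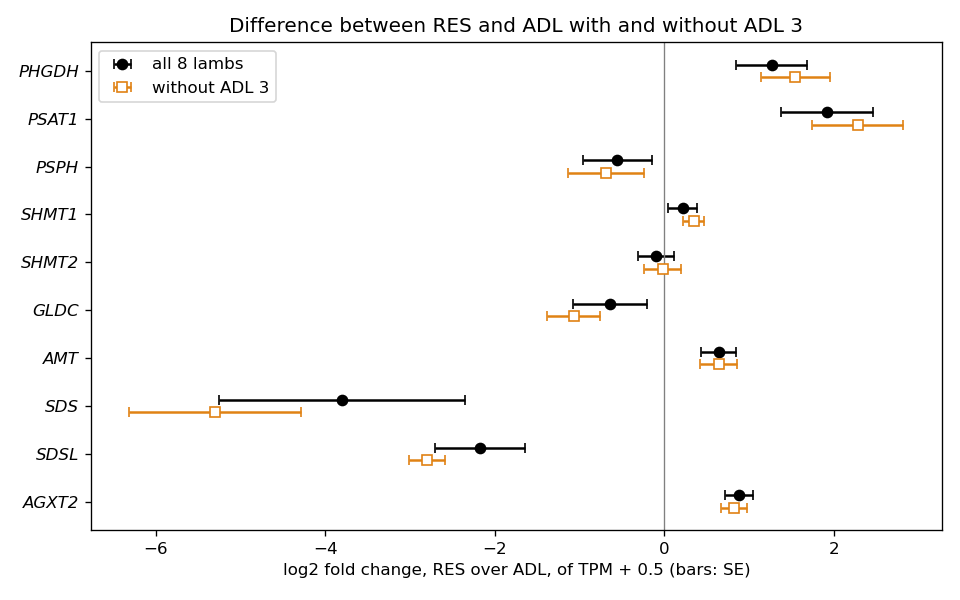
Log2 fold change of RES over ADL for each member on log2(TPM + 0.5), with SE as bars, for all 8 lambs (filled circles) and without ADL 3 (open squares). SDS moved from -3.80 to -5.29, whereas AMT stayed at 0.64 and AGXT2 moved from 0.87 to 0.82.

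The members thus differed in where ADL 3 and RES 4 lay. A lamb's position between the groups was scored on log2 values as 0 where it equalled its group mates' mean and 1 where it equalled that of the opposite group. The opposite group was always complete, so ADL 3 entered the scores of RES 4, and RES 4 those of ADL 3. Scores without the other lamb were not computed. ADL 3 scored 1.13 in SDS, 0.89 in SDSL, 0.73 in PHGDH and 0.63 in PSAT1. It scored -0.02 in AMT and -0.29 in AGXT2, the other members whose difference had an unadjusted p under 0.05. RES 4 scored 0.85 in SDS, 0.93 in PHGDH, 0.69 in PSAT1, 0.64 in AMT and 0.43 in AGXT2, but -0.04 in SDSL. Without RES 4, the log2 fold changes of SDS, PHGDH and PSAT1 were -4.84, 1.64 and 2.32, and 0 of 10 members passed (0.355% of all genes; 6 members at an unadjusted p under 0.05).

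**Figure D3:**
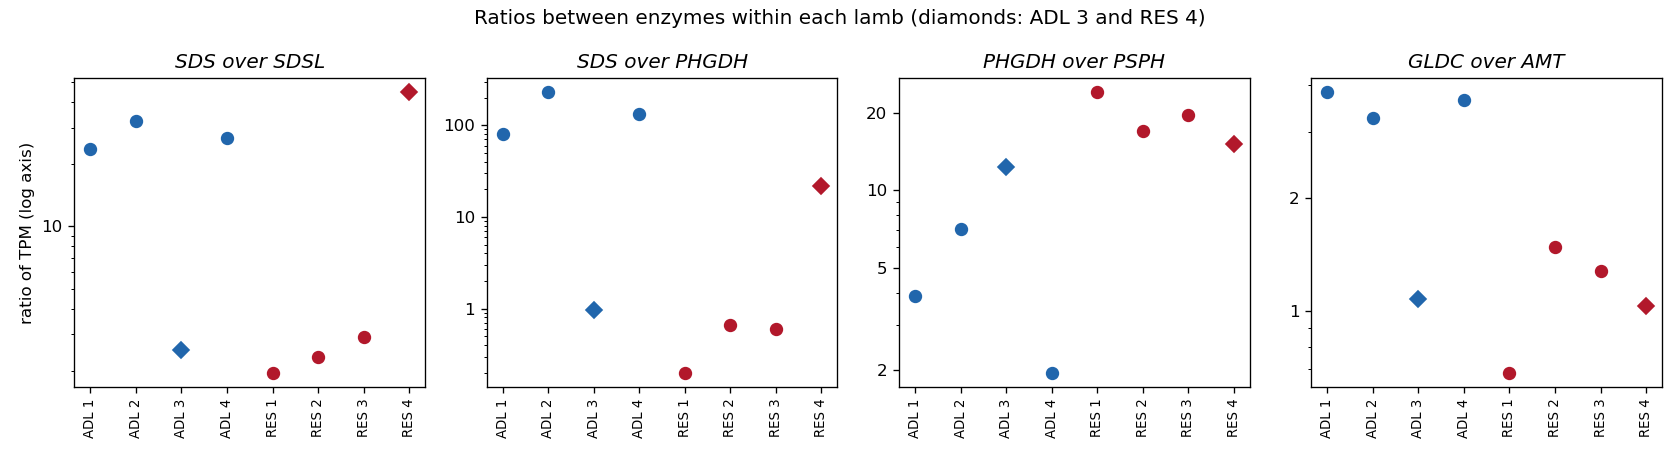
Ratios of TPM between pairs of members in each lamb on log axes, with ADL in blue, RES in red and ADL 3 and RES 4 as diamonds. The ratio of PHGDH to PSPH was 1.96 to 12.3 in ADL and 15.1 to 24.0 in RES, while SDS over SDSL ran from 1.95 in RES 1 to 44.6 in RES 4.

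The order of the levels per length changed with the lambs. In ADL 1, ADL 2 and ADL 4 the order of the means was SDS, SHMT1, SDSL, GLDC, AGXT2, SHMT2, PHGDH, AMT, PSAT1 and PSPH. There SDS stood clear of SHMT1, SHMT1 of SDSL and AGXT2 of SHMT2, and the ranges of the other neighbours overlapped. In RES the order was SHMT1, SDS, AGXT2, PSAT1, PHGDH, GLDC, AMT, SHMT2, SDSL and PSPH, where SHMT2 stood clear of SDSL and SDSL of PSPH. This order kept RES 4, whereas the one above left out ADL 3. SDS was at 862 TPM in RES 4 and at 31.1 to 68.9 TPM in RES 1 to RES 3. In each of RES 1 to RES 3 it was below AGXT2, PSAT1 and PHGDH. SDS was 79.9 to 228 times PHGDH in ADL 1, ADL 2 and ADL 4 and 22.0 times in RES 4. It was at 0.968 of PHGDH in ADL 3 and at 0.199 to 0.663 of it in RES 1 to RES 3.

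Genes around these enzymes were followed in 9 lists, with 101 of 107 listed names in the table and 93 tested. Limma called 0 of them in the 8 lambs (smallest adjusted p = 0.166; 32 at an unadjusted p under 0.05, against 9.70% of all genes). Without ADL 3, 10 rose and 10 fell in RES, beside 2.42% of all genes higher and 7.59% lower in that fit. The split over all genes depended on the scaling. It was 334 higher and 1048 lower in that fit, and 619 higher and 552 lower after median-of-ratios rescaling. The median log2 fold change of the related genes was 0.06 with all lambs and -0.04 without ADL 3, beside -0.04 and -0.13 over all genes. The lists, too, were chosen with earlier results of these data known, so these counts describe them and support nothing. Because 0 passed in the 8 lambs, those that passed without ADL 3 are named below in addition to the genes that the naming rule picks. Their p-values come from a fit whose left-out lamb was picked from these same data, so they describe the remaining lambs and support nothing.

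Of the other glycine cleavage and lipoate genes, 0 of 5 passed in either fit (median -0.10, and -0.40 without ADL 3). LIPT2, which transfers the precursor of lipoate, had 1.42 to 3.05 TPM in ADL and 3.04 to 6.93 TPM in RES. LIAS, which makes lipoate, had 13.5 to 32.5 and 12.9 to 24.0 TPM.

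Among folate enzymes, which take up the carbon released by SHMT and the cleavage system, 9 of 12 tested were higher in RES (median 0.51, and 0.46 without ADL 3). ALDH1L2, which oxidises formyl-folate in mitochondria, was at 1.14, 1.796, 16.3 and 2.44 TPM in ADL 1 to ADL 4 and at 13.95 to 20.4 TPM in RES. FPGS, which adds glutamates that hold folate in the cell, had 18.4 to 29.3 TPM in ADL and 32.8 to 45.7 TPM in RES, with no overlap. Without ADL 3 both rose, by log2 fold changes of 2.97 (SE 0.22, limma adjusted p = 0.000822) and 0.76 (SE 0.19, limma adjusted p = 0.0419). The summed level of the list was 683 to 820 TPM in ADL and 1006 to 1095 TPM in RES. Most of that gap was 1 gene named after its values were seen, ALDH1L1, the cytosolic counterpart of ALDH1L2, with 150 to 364 TPM in ADL and 443 to 632 TPM in RES (limma adjusted p = 0.375, and 0.0890 without ADL 3). The next most abundant, MTHFD1, had 177 to 265 TPM in ADL and 130 to 185 TPM in RES.

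Enzymes that turn glycine into sarcosine and back moved oppositely without ADL 3. GNMT, which methylates glycine to sarcosine, was at 458, 529, 23.3 and 616 TPM in ADL 1 to ADL 4 and at 14.9 to 34.7 TPM in RES. SARDH, which oxidises sarcosine back to glycine, was at 11.6, 9.01, 22.1 and 10.6 TPM in ADL 1 to ADL 4 and at 20.1 to 26.3 TPM in RES. In both genes ADL 3 lay within the RES range. Without it GNMT fell by 4.69 (SE 0.28, limma adjusted p = 0.000649) and SARDH rose by 1.09 (SE 0.14, limma adjusted p = 0.00612).

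Of the 13 tested sources of glycine and glyoxylate, 12 were higher in RES (median 0.49). Without ADL 3, SARDH, GCAT, which frees glycine from a threonine product, and GLYCTK, a glycerate kinase, rose (log2 fold changes 1.09, 0.90 and 1.54; limma adjusted p = 0.00612, 0.0192 and 0.0465). Of 8 tested genes that use glycine, 7 were higher in RES in the 8 lambs (median 0.52). Without ADL 3, GLYATL3, of the glycine acyltransferase family, and GSS, which adds glycine in glutathione synthesis, rose (2.54 and 0.69; limma adjusted p = 0.0127 and 0.0470), and GNMT fell. GCLM, the regulatory subunit of the preceding step of glutathione synthesis, had 24.7 to 55.9 TPM in ADL and 36.6 to 89.6 TPM in RES.

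Serine also enters cysteine synthesis, where CBS joins it to homocysteine and CTH cleaves the product. CTH was at 397, 442, 37.2 and 553 TPM in ADL 1 to ADL 4 and at 34.2 to 92.0 TPM in RES, with ADL 3 inside the RES range. Without ADL 3, CTH fell by 3.23 (SE 0.32, limma adjusted p = 0.00238) and CBS fell by 1.28 (SE 0.23, limma adjusted p = 0.0176). They were the 2 of 13 tested serine users that passed (list median -0.14, and -0.18 without ADL 3). SERINC2, of a family named for bringing serine into membrane lipids, had 11.5 to 42.1 TPM in ADL and 2.22 to 11.2 TPM in RES.

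Of 12 tested transporters of serine, glycine and other neutral amino acids, SLC38A3 rose without ADL 3 (log2 fold change 0.66, SE 0.10, limma adjusted p = 0.0127). It was at 69.8, 71.3, 91.4 and 73.7 TPM in ADL 1 to ADL 4 and at 108 to 117 TPM in RES, with no overlap in the 8 lambs. SLC36A1, a proton-coupled carrier of small amino acids, was at 1.93 to 2.66 TPM in ADL and 1.49 to 1.72 TPM in RES. The list medians were -0.16 and, without ADL 3, -0.35.

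Beyond serine lies pyruvate, the product of SDS. GPT2, which exchanges pyruvate and alanine in mitochondria, was at 487, 252, 34.8 and 345 TPM in ADL 1 to ADL 4 and at 31.6 to 57.2 TPM in RES. Without ADL 3, GPT2, pyruvate carboxylase (PC) and PDHA1 of pyruvate dehydrogenase fell (log2 fold changes -3.14, -1.43 and -0.85) and PCK1 rose (0.82; limma adjusted p = 0.00164 to 0.0389 for these 4 of 11 tested genes). LDHA, of lactate dehydrogenase, had 26.5 to 31.1 TPM in ADL and 17.1 to 23.0 TPM in RES, with no overlap.

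In the amino acid stress response, ATF4 is known in mammals to act on PHGDH, PSAT1 and other synthesis genes. The listed genes of this response, regulators and targets together, had no common direction (5 of 9 tested were higher in RES). Their medians were 0.20 and, without ADL 3, -0.00. ATF4 itself had 176 to 249 TPM in ADL and 190 to 328 TPM in RES, and its target ASNS, of asparagine synthesis, 3.25 to 9.40 and 5.69 to 7.88 TPM; these 2 were picked after their values had been seen. ATF5 was at 88.5, 71.5, 148 and 96.2 TPM in ADL 1 to ADL 4 and at 667, 646, 570 and 222 TPM in RES 1 to RES 4. As in PHGDH and PSAT1, its highest ADL lamb was ADL 3 and its lowest RES lamb RES 4, though in ATF5 the groups did not overlap. Without ADL 3 it rose by 2.50 (SE 0.37, limma adjusted p = 0.0110) and TRIB3 fell by 0.69 (limma adjusted p = 0.0410, and 0.0524 after rescaling). CEBPB, a transcription factor of liver metabolism, had 34.0 to 117 TPM in ADL and 20.1 to 57.2 TPM in RES.

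Among 10 genes of glucagon and glucocorticoid control (medians -0.10 and -0.22), CREB3L3, TAT and CREB1 fell without ADL 3. CREB3L3, a membrane-bound transcription factor of fasting, fell by 1.85 (SE 0.30, limma adjusted p = 0.0135), with 105 TPM in ADL 3, 428 to 605 TPM in the other ADL lambs and 101 to 239 TPM in RES. TAT, which begins tyrosine breakdown, fell by 0.96 (SE 0.20, limma adjusted p = 0.0265), and CREB1 fell by 0.50 (SE 0.11, limma adjusted p = 0.0295, and 0.0678 after rescaling).

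**Figure D4:**
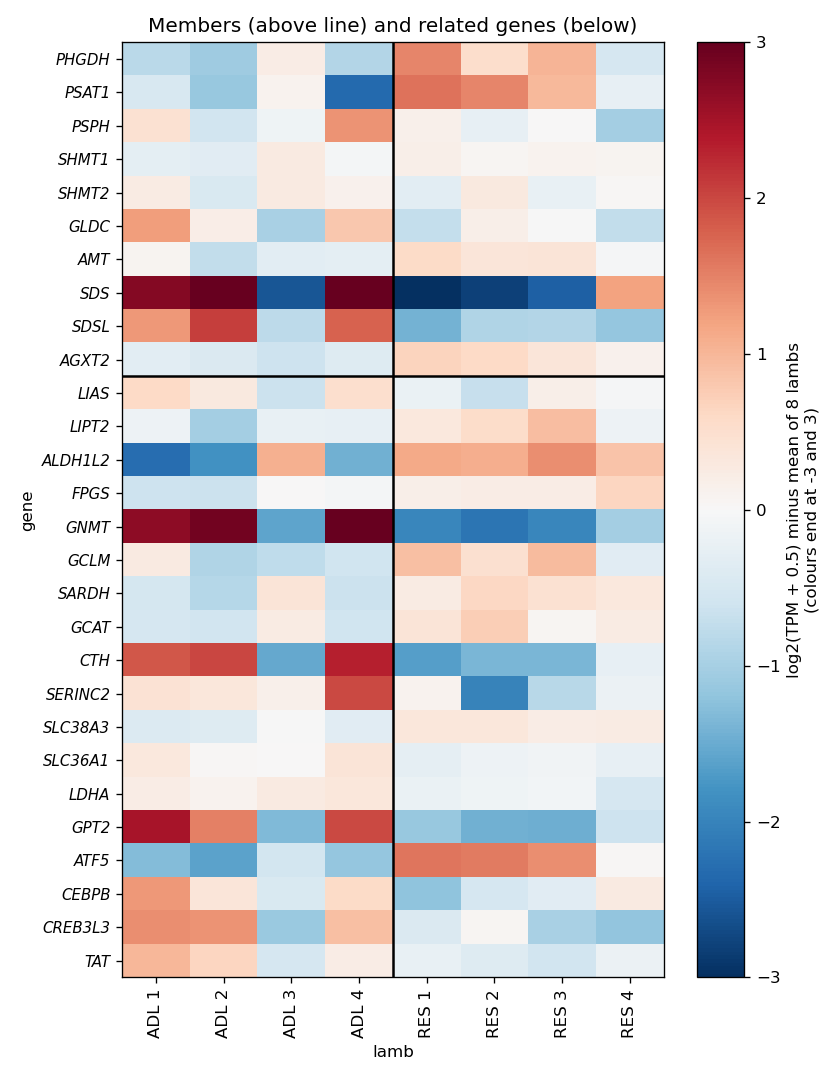
Log2(TPM + 0.5) minus the mean of the 8 lambs for the 10 members (above the line) and for the related genes picked by the naming rule (below), one column per lamb, with colours ending at -3 and 3. SDS, GNMT, CTH and GPT2 were above their means in ADL 1, ADL 2 and ADL 4 and below them in ADL 3, and SDS alone of these 4 was above its mean in RES 4.

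Among genes with a symbol, those with profiles closest to SDS over the 8 lambs, by root mean square difference of centred log2 values, were ARG2 (1.00), a mitochondrial arginase, GOT1 (1.03), an aspartate aminotransferase, GNMT (1.14) and CTH (1.41). ARG2 was at 40.6, 293, 14.2 and 264 TPM in ADL 1 to ADL 4. As in SDS, it was lowest in ADL 3 among the ADL lambs. It was low in RES 1 to RES 3 (1.24 to 4.61 TPM) and higher in RES 4 (41.4 TPM). Unlike in SDS, ADL 1 was not above RES 4, so the groups overlapped even without ADL 3. Of the synthesis genes PSAT1 had the largest SD over the lambs, and the closest profiles to it were TPH1 (0.29), a tryptophan hydroxylase, FMO5 (0.42), a flavin monooxygenase, PALMD (0.43) and LGI4 (0.48). TPH1 was at 28.4, 20.8, 61.3 and 8.93 TPM in ADL 1 to ADL 4 and at 148, 120, 119 and 66.4 TPM in RES 1 to RES 4. These genes were picked for their likeness, so no test was made.

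Hepatocyte genes of the periportal zone, where SDS is known in rats to be expressed, were set beside these results. Without SDS itself, the 7 markers summed to 8596, 7079, 3665 and 7373 TPM in ADL 1 to ADL 4 and to 3332 to 4357 TPM in RES. In this sum ADL 3 lay with the RES lambs, and RES 4 (4357 TPM) was level with RES 1 (4310 TPM). Of the 7, 0 were called in the 8 lambs (5 lower and 2 higher, median -1.03). Without ADL 3, 5 were called lower and 1 higher (median -1.64), beside 7.59% and 2.42% of all genes. The 8 pericentral markers summed to 3102 TPM in ADL 3, the lowest of the 8 lambs. They summed to 4843 to 7013 TPM in the other ADL lambs and 5876 to 7911 TPM in RES. ADL 3 was thus below every RES lamb in this sum. The highest single value in this list was 7625 TPM, so 1 gene can make up most of the sum. Summed macrophage, stellate and lymphocyte markers overlapped between the groups. Sinusoidal endothelial markers summed to 218 TPM in ADL 3, 340 to 415 TPM in the other ADL lambs and 227 to 320 TPM in RES, so that without ADL 3 the groups did not overlap, and 1 of the 6 was called lower. Of 4 erythroid markers in the table, none exceeded 1.20 TPM. The part of these cell types and zones in the members' values was not tested.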

How the data were processed

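Polyadenylated liver RNA of 4 ADL and 4 RES lambs was sequenced from both ends, 1 library per lamb, per the labels' protocols. The submitters' processing notes name bcl2fastq 1.8.4 and DESeq2 1.12.4; no source used here states the aligner, the read counter or the genome build. The deposited table holds the authors' TPM per lamb, with the gene length in another column, and, per the file headers, the authors' DESeq2 comparison: a mean count (a size-factor scaled signal), a log2 fold change with its standard error, a test score and p-values before and after adjustment. Since TPM sum to a fixed total in every lamb, an increase in abundant genes depresses the rest. TPM times gene length gave whole reads (100% of values within 0.001), 15134039 to 17879918 per lamb, which was the depth.

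Genes averaging at least 1 TPM entered one fit on log2(TPM + 0.5) with limma 3.58.1 (R 4.3.3, trended eBayes). Tests were two-sided, and p-values were adjusted over all genes by the Benjamini-Hochberg method, with 0.05 as the threshold. Fold changes are RES over ADL on that scale, which understates changes of low genes. All 10 members passed the filter. The procedure was tested on simulated reads. The members, lists and alternatives were chosen with earlier results of these data known. Named genes are the members, the 2 genes of each list with the smallest p, and the 4 genes with profiles closest to SDS and to the most variable synthesis gene. List names were matched by table symbol; MTHFS, GLYAT, BAAT, TDH and newer synonyms of genes already listed found no match, nor did the markers APOA1, KRT19, CD163, HBB and HBA1. The share of reads lost to or gained from similar genes was not tested.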

Additional observations from a re-analysis of the deposited data

Results flagged for a closer look

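Each group of 4 lambs was checked for a lamb far from the rest on the log2 scale, by the gap to its nearest neighbour over the group's range against Dixon's 95% limit. Of 68 groups from 34 named genes, 8 held such a lamb. The limit has a nominal rate of about 1 in 20. However, the genes were named for known differences, small p or likeness of profile, and the groups share the same lambs. The count therefore cannot be set against that rate. The members themselves gave 0. ADL 3 was far below its group in GNMT (23.3 TPM, others 458 to 616) and CTH (37.2 TPM, others 397 to 553) and above it in GCAT (52.4 TPM, others 29.4 to 31.4). RES 4 was far below its group in ATF5 (222 TPM, others 570 to 667) and PALMD (15.2 TPM, others 40.9 to 46.1) and above it in FPGS (45.7 TPM, others 32.8 to 34.0). ADL 2 was low in LIPT2 (1.42 TPM, others 2.82 to 3.05), and ADL 4 was high in SERINC2 (42.1 TPM, others 11.5 to 14.1).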

How the results depend on the processing

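Leaving out each lamb in turn gave 0 to 4 called members, 0 to 20 called related genes and 0 to 1382 called genes in all. The highest counts came without ADL 3; without RES 4 they were 0, 1 (ATF5) and 49. Over these fits the log2 fold change of SDS ran from -5.29 to -3.10, of SDSL from -2.80 to -1.84, of PHGDH from 0.98 to 1.64, of PSAT1 from 1.46 to 2.32 and of AGXT2 from 0.80 to 0.98. All 10 members kept the sign of their log2 fold change with each lamb left out and with 8 lambs under each other scaling, filter, pseudocount, covariate, block and voom. With 8 lambs, median-of-ratios scaling, no filter on low values and the replicate block each lowered the 1 gene called in all to 0, and other pseudocounts, filters, scalings, age as a covariate and voom left 0 members and 0 related genes called. With lamb number as a replicate block, members called stayed at 0. Same-numbered lambs did not deviate together (correlations 0.11, -0.00, -0.04 and 0.16), and 1 of 4 ADL lambs correlated best with its own number, so the numbers were not taken as pairs.

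Alternatives chosen after seeing the data both left out ADL 3. Median-of-ratios scaling, which moved the median of all genes from -0.13 to 0.01, called 7 members (PHGDH, SHMT1 and AMT besides the 4), 22 related genes and 1171 genes in all. Without ADL 3 it turned SHMT2 from -0.02 to 0.12; with 8 lambs the same scaling left it below 0, at -0.06. Voom called 4 members, with PHGDH in place of SDS, 21 related genes and 1364 in all. TRIB3 and CREB1 did not pass after the rescaling (adjusted p = 0.0524 and 0.0678). Depth limits PSPH most, at 64 reads in its lowest lamb. No causes were tested.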
